A study of Arabidopsis thaliana with 12 samples.

Results

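The probe sets described here were those whose signal was higher in darkness than in light in empty-vector seedlings of Arabidopsis thaliana, and higher again in darkness when the gene MINI ZINC FINGER 1 (MIF1) was overexpressed. They were chosen on group means of log2(intensity + 7). A probe set, which is a group of array probes for 1 transcript, was taken where the dark vector mean exceeded the light vector mean by at least 1, the dark 35S-MIF1 mean exceeded the dark vector mean by at least 1, and the dark 35S-MIF1 mean was at least 6. Of 22746 probe sets, 86 met these values. Isocitrate lyase (ICL), OSM34, APS4, GH3.17, 7 late embryogenesis abundant genes, 2 peroxidases and 1 cupin were then left out as named genes or families, which left 72 members. In the annotation used, 36 members name 1 gene each, 34 name none and 2 name several. The families could be left out only among named probe sets. The values of the dark 35S-MIF1, dark vector and light vector arrays chose the members, so differences between those groups are given below as descriptions with no test.

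Each of 12 Affymetrix ATH1 arrays, which carry 1 colour, was hybridised with RNA of whole Columbia seedlings, 3 arrays per group. Dark 35S-MIF1 and light 35S-MIF1 seedlings carried MIF1 under the 35S promoter, which is active in most plant tissues, and dark vector and light vector seedlings carried an empty vector, labelled pRR2222 or pRRR2222. In both conditions 35S-MIF1 replicates 1 and 2 were 2 samples of line 124 and replicate 3 was line 127, while vector replicates 1, 2 and 3 were the independent lines 1, 4 and 7. All plants were of the T2 generation, were selected on 50 µg/mL hygromycin after 2 days of stratification at 4 °C, and were harvested after 7 days at 22 °C. Dark-grown seedlings had 2 h of light to start germination, and light-grown seedlings had 16 h of light at 70 to 120 µmol m-2 s-1 and 8 h of darkness a day. Vector seedlings are called wild type in the labels but carry the vector and its selection marker. The overexpressing seedlings rest on 2 lines, of which line 127 has 1 array per condition. The level of MIF1 itself was not identified here, and whether any unnamed member detects MIF1 was not tested.

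A seedling kept in darkness lives on seed reserves and builds a long hypocotyl with closed cotyledons and no working chloroplasts, and many transcripts differ between this state and growth in light. MIF1 is a small zinc finger protein related to the zinc finger homeodomain proteins but without a homeodomain, and it is known for dwarf growth and altered hormone responses in plants that overexpress it. Among the members are enzymes that plants secrete into the cell wall and vacuole, such as chitinases and a β-1,3-glucanase, which break down cell wall polymers of fungi and are usually described as defence proteins. Others belong to families that oxidise or glycosylate phenolic compounds, to receptor and calcium signalling, or have no assigned role.

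Median intensity per array lay between 57.4 and 70.4, and Pearson's r between arrays of 1 group lay between 0.953 and 0.975 on the log2 scale. The median of all 15922 probe sets tested differed little between arrays, from 6.90 on light vector replicate 3 to 7.03 on dark vector replicate 1. Of 10 photosynthetic shoot markers 5 could be matched (LHCB4.2, PSAN, PSBY, SBPASE and PRK), and they summed to between 2692 and 4309 intensity units on dark 35S-MIF1 arrays, 3884 and 6884 on dark vector arrays, 10625 and 10924 on light 35S-MIF1 arrays, and 12254 and 16031 on light vector arrays. Of 9 root markers 3 were matched (PYK10, EXPA7 and EXPA18), and they summed to between 4999 and 5221 on dark 35S-MIF1 arrays, 4239 and 5067 on dark vector arrays, 3765 and 5268 on light 35S-MIF1 arrays, and 4237 and 4841 on light vector arrays. PYK10 made up most of each root sum. On the log2 scale its dark 35S-MIF1 mean was 12.28, against 6.05 for EXPA7 and 6.83 for EXPA18. The part of a shift in shoot or root tissue in the results below was not tested. In whole seedlings, more cells of a type and more RNA per cell cannot be told apart.

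The members' group means had a median of 8.34 in dark 35S-MIF1, 6.86 in dark vector, 6.27 in light 35S-MIF1 and 5.09 in light vector seedlings. The order of the groups other than light 35S-MIF1 follows from the choice. The dark 35S-MIF1 minus dark vector difference lay between 1.01 and 4.88 with a median of 1.29, and the dark vector minus light vector difference lay between 1.02 and 6.21 with a median of 1.42. A difference of at least 2 was reached by 9 members for the first and by 11 for the second, and by 0 members for both. Every dark 35S-MIF1 array was above every dark vector array for 56 of the 72 members. A probe set was bright enough to be tested where its mean over all arrays lay above the 30th percentile, which 68 members did, while AT5G53990, OCT1, AT4G25090 and 1 unnamed probe set did not. Of the 68 this held for 53, where 18.3% of all probe sets tested did so, and nothing is read from it because the choice used these arrays. Every dark vector array was above every light vector array for 60 members, 57 of them tested, against 24.2% of all tested, with the same reservation.

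**Figure D1:**
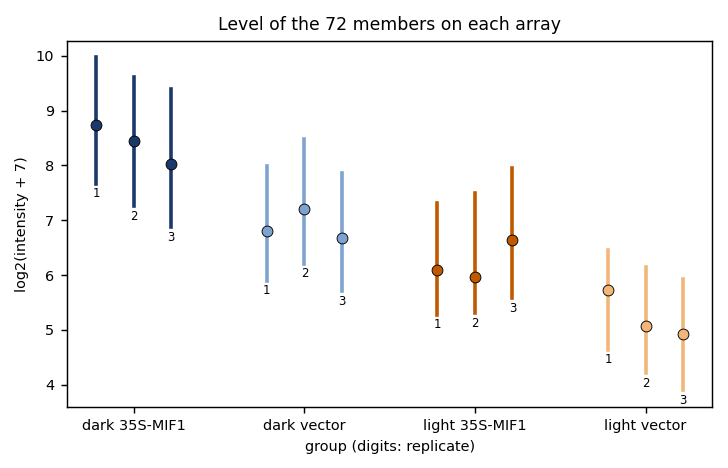
Level of the 72 members on each of the 12 arrays, as log2(intensity + 7), with the group on the horizontal axis. Points are the median over members and bars run between the quartiles. The dark 35S-MIF1 arrays have medians of 8.73, 8.44 and 8.02, the dark vector arrays 6.81, 7.21 and 6.67, the light 35S-MIF1 arrays 6.08, 5.97 and 6.64 and the light vector arrays 5.72, 5.06 and 4.93. All groups but light 35S-MIF1 were used to choose the members.

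In the following, intensities are the deposited linear values, given in the order line 124, line 124 and line 127 for 35S-MIF1 arrays and line 1, line 4 and line 7 for vector arrays. Differences are on the log2(intensity + 7) scale, on which changes of dim probe sets come out too small. Levels are not compared between genes, since each probe set has its own brightness.

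Secreted hydrolases and related proteins made up 8 of the named members. All 8 had dark 35S-MIF1 arrays above every dark vector array, among arrays that the choice used. The protein encoded by AT3G54940 belongs to the papain-type cysteine proteases. In darkness AT3G54940 had 539.6, 685 and 52.7 on 35S-MIF1 arrays, against 33.3, 29.1 and 12.4 on vector arrays. In light AT3G54940 had 58.5, 25.7 and 16.1 on 35S-MIF1 arrays, against 5.32, 4.93 and 2.88 on vector arrays. Groups did not overlap in either condition, but line 127 lay far below both line 124 arrays in darkness and was the lowest of the 3 in light too. The dark 35S-MIF1 minus dark vector difference of 3.21 therefore rested mainly on line 124.

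Chitinases, which hydrolyse chitin, gave 3 members, all within 1 row of genes. CHI (AT2G43570) had 979, 724 and 641 on 35S-MIF1 arrays, against 311, 479 and 286 on vector arrays in darkness. In light CHI had 170.0, 89.1 and 236 on 35S-MIF1 arrays, against 69, 59.6 and 39.7 on vector arrays. Each group of CHI lay apart from the next, in the order dark 35S-MIF1, dark vector, light 35S-MIF1, light vector. AT2G43590 had 3496, 3576 and 1986 on 35S-MIF1 arrays, against 1364, 964 and 1109 on vector arrays in darkness. In light AT2G43590 had 191, 261 and 156 on 35S-MIF1 arrays, against 715, 129 and 269 on vector arrays. In light its groups overlapped, and the light 35S-MIF1 minus light vector difference was -0.55, with light vector line 1 far above the rest. AT2G43610 had 2347, 1449 and 1918 on 35S-MIF1 arrays, against 774, 952 and 543 on vector arrays in darkness. For AT2G43610 the light values were 352, 198 and 318 on 35S-MIF1 arrays, against 229, 216 and 189.7 on vector arrays. Here too the groups stood apart in darkness and overlapped in light.

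In the annotation used, 1 gene lies between CHI and AT2G43590 and 1 between AT2G43590 and AT2G43610. These genes in between were not members. AT2G43580 differed by 0.59 between dark vector and light vector seedlings and by 0.69 between dark 35S-MIF1 and dark vector seedlings. AT2G43600 had differences of -1.20 and 2.51 in the same comparisons, and AT2G43620, the next gene after the row, -2.34 and 2.29. Both were thus higher in dark 35S-MIF1 than in dark vector seedlings, like the members. Unlike them, both were lower in dark vector than in light vector seedlings. AT2G43580 and AT2G43600 were dim, with dark 35S-MIF1 means of 4.49 and 5.54, below the 6 required of members, against 7.83 for AT2G43620. Whether probes of these similar neighbours detect each other's transcripts was not tested.

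AT4G16260 encodes a β-1,3-glucanase, an enzyme that cuts callose and fungal glucans. In darkness AT4G16260 had 2455, 1889 and 2507 on 35S-MIF1 arrays, against 487, 867 and 476 on vector arrays. In light AT4G16260 had 1029, 1059 and 1966 on 35S-MIF1 arrays, against 482, 309.8 and 138 on vector arrays. The 35S-MIF1 arrays were above the vector arrays in both conditions, while dark vector line 7 fell just under light vector line 1. AT2G15220, a member of the basic secretory protein family, had 730.1, 604 and 579.6 on 35S-MIF1 arrays, against 313, 367 and 212 on vector arrays in darkness. In light AT2G15220 had 93.6, 196 and 341 on 35S-MIF1 arrays, against 59.8, 44.9 and 41.9 on vector arrays. The 4 groups did not overlap, apart from line 127 in light, which lay among the dark vector arrays. Its probe set is of a kind that can detect several similar transcripts.

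The fructan exohydrolase cwINV6 had 275, 198 and 298 on 35S-MIF1 arrays, against 67.7, 73.3 and 58.2 on vector arrays in darkness. In light its values were 70.1, 56.4 and 198 on 35S-MIF1 arrays, against 34.6, 26.2 and 13.7 on vector arrays. Line 127 in light reached the level of the lower line 124 array in darkness, while both line 124 arrays in light lay close to the dark vector arrays. The six-hairpin glycosidase AT1G24320 had 94.7, 75.8 and 69.3 on 35S-MIF1 arrays, against 29.6, 41.8 and 27.6 on vector arrays in darkness. For AT1G24320 the light values were 9.04, 15.4 and 17.8 on 35S-MIF1 arrays, against 17.5, 1.79 and 14 on vector arrays. In light the genotypes overlapped, and light vector line 4 was near the bottom of the scale.

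Oxidoreductases and conjugating enzymes were the largest named group, with 12 members. AT3G13610 encodes a feruloyl-CoA hydroxylase that makes the coumarin scopoletin. In darkness AT3G13610 had 1459, 1228 and 1392 on 35S-MIF1 arrays, against 455, 712 and 373 on vector arrays. In light AT3G13610 had 117, 135 and 379 on 35S-MIF1 arrays, against 241, 85.6 and 83.8 on vector arrays. The genotypes were far apart in darkness, whereas in light line 124 lay among the vector arrays and line 127 above them. Berberine bridge enzyme-like proteins, a family of flavin oxidases, gave 3 members. AT1G30700 had 634, 362 and 564 on 35S-MIF1 arrays, against 139, 309 and 201 on vector arrays in darkness. In light AT1G30700 had 160.2, 129 and 249.5 on 35S-MIF1 arrays, against 58.6, 86.8 and 48.5 on vector arrays. The genotypes of AT1G30700 did not overlap in either condition. AT1G26380 had 431, 197 and 135 on 35S-MIF1 arrays, against 118, 179 and 42.4 on vector arrays in darkness. For AT1G26380 the light values were 37.2, 41.7 and 109 on 35S-MIF1 arrays, against 51.6, 25 and 9.59 on vector arrays. Dark vector line 4 exceeded line 127, so the dark groups overlapped, and those in light did too. AT1G26410, 2 genes further along, differed by 1.11 between dark 35S-MIF1 and dark vector seedlings, and its groups also overlapped. Of the pair between them, AT1G26390 differed by 1.84 between dark and light vector seedlings but by only 0.23 between the genotypes in darkness. AT1G26400 differed by -0.26 and -0.22, but its dark 35S-MIF1 mean of 3.16 lay near the bottom of the scale. AT1G26420, which lies beyond AT1G26410, differed by 1.54 and 0.92 and so fell just short of the threshold between genotypes.

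Glycosyltransferases attach sugars to small molecules. AT5G53990 was not tested because its mean was too dim, and it had 88.6, 94.1 and 72.4 on 35S-MIF1 arrays, against 20.2, 48.4 and 28.6 on vector arrays in darkness. In light AT5G53990 had 1.71, 2.02 and 24.4 on 35S-MIF1 arrays, against 3.23, 1.61 and 1.08 on vector arrays. In light line 127 stood well above every other array of AT5G53990. UGT72E2, which glucosylates monolignols, differed by 1.21 between dark 35S-MIF1 and dark vector seedlings, whose arrays did not overlap. AT4G25090 belongs to the respiratory burst oxidases, which make superoxide at the plasma membrane, and was also not tested. In darkness AT4G25090 had 79.9, 74.5 and 92.2 on 35S-MIF1 arrays, against 22.7, 35.3 and 25.4 on vector arrays. In light AT4G25090 had 3.29, 4.41 and 39.9 on 35S-MIF1 arrays, against 8.02, 5.44 and 9.19 on vector arrays. Line 127 in light was again the array that stood apart. AT1G74010, a strictosidine synthase-like protein, had 60.3, 53.2 and 155 on 35S-MIF1 arrays, against 21.2, 24.6 and 31.1 on vector arrays in darkness. For AT1G74010 the light values were 21.4, 25.1 and 87.5 on 35S-MIF1 arrays, against 18.1, 2.21 and 3.9 on vector arrays. In both conditions line 127 was the highest array of AT1G74010, and the genotypes did not overlap.

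The other 4 members of this group were the 2-oxoglutarate-dependent oxygenase AT2G30840, the cinnamyl alcohol dehydrogenase-like reductase AT1G66800, the aldo-keto reductase AT5G01670 and AT5G38900 of the thioredoxin superfamily. Their dark 35S-MIF1 minus dark vector differences lay between 1.03 for AT2G30840 and 1.104 for AT1G66800. Of these AT5G01670 was uneven between lines, with 381, 219.5 and 86.2 on 35S-MIF1 arrays, against 80.9, 113 and 81.8 on vector arrays in darkness. Line 127 of AT5G01670 lay among the dark vector arrays.

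Signalling, transport and membrane proteins gave 8 members. AT5G37740 has a C2 domain, which binds calcium and membrane lipids. In darkness AT5G37740 had 1291, 1004 and 1087 on 35S-MIF1 arrays, against 495, 463 and 595 on vector arrays. In light AT5G37740 had 554, 452 and 729 on 35S-MIF1 arrays, against 257, 221 and 206 on vector arrays. The 35S-MIF1 and vector arrays of AT5G37740 did not overlap in either condition, and the spread within groups was small. DC1 domains, cysteine-rich domains that resemble zinc fingers, occurred in the proteins of 3 members. AT3G13760 had 151, 64.2 and 89.9 on 35S-MIF1 arrays, against 30.5, 77.9 and 32 on vector arrays in darkness. In light AT3G13760 had 23.3, 35.1 and 37.1 on 35S-MIF1 arrays, against 4.58, 3.2 and 1.62 on vector arrays. Dark vector line 4 lay above 1 of the line 124 arrays, so the dark groups overlapped, whereas those in light were well apart. AT5G43520 had 505, 324 and 425 on 35S-MIF1 arrays, against 164, 181 and 148 on vector arrays in darkness. For AT5G43520 the light values were 123, 56.3 and 110.5 on 35S-MIF1 arrays, against 57, 55.9 and 36 on vector arrays. Groups stood apart in darkness and overlapped by a narrow margin in light. AT2G44370, the remaining one, differed by 1.07 between dark 35S-MIF1 and dark vector seedlings.

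AT1G65690 is an NDR1/HIN1-like membrane protein, kept here although it is sometimes filed with the late embryogenesis abundant proteins. In darkness AT1G65690 had 358, 318 and 250.5 on 35S-MIF1 arrays, against 131, 138 and 150.2 on vector arrays. In light AT1G65690 had 81.9, 81.5 and 174 on 35S-MIF1 arrays, against 66.7, 29.6 and 28.6 on vector arrays. The genotypes did not overlap in either condition, and in light line 127 was above every dark vector array. The VQ motif protein AT4G20000, of a family that binds WRKY transcription factors, had 83.8, 76.5 and 65 on 35S-MIF1 arrays, against 6.87, 56.1 and 35.4 on vector arrays in darkness. In light AT4G20000 had 31.3, 9.4 and 28.6 on 35S-MIF1 arrays, against 23.3, 3.28 and 2.14 on vector arrays. Dark vector line 1 was far below the other dark vector lines, which lowered that mean. The organic cation and carnitine transporter OCT1, not tested, had 109, 88.1 and 41.6 on 35S-MIF1 arrays, against 34.7, 91 and 1.16 on vector arrays in darkness. For OCT1 the light values were 35.6, 10.6 and 1.84 on 35S-MIF1 arrays, against 2.93, 1.62 and 0.689 on vector arrays. Its dark vector lines ranged from close to 0 to the level of line 124, so the genotypes overlapped. The leucine-rich repeat receptor kinase AT1G51860 was the member closest to the threshold between genotypes, at 1.01.

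The remaining 8 named members have other or no assigned roles. AT2G16005 encodes an MD-2-related lipid recognition protein. In darkness AT2G16005 had 1636, 752 and 896 on 35S-MIF1 arrays, against 171, 478 and 224 on vector arrays. In light AT2G16005 had 131, 176 and 203 on 35S-MIF1 arrays, against 89, 53.4 and 59.5 on vector arrays. Neither condition had overlapping genotypes. AT3G54040, of the photoassimilate-responsive family, had 1089.6, 1231 and 1319 on 35S-MIF1 arrays, against 625, 669 and 446 on vector arrays in darkness. In light AT3G54040 had 249, 279 and 309 on 35S-MIF1 arrays, against 317, 157 and 126 on vector arrays. Only the dark groups stood apart. AT5G26260, a TRAF-like protein, had 1136, 1215 and 1136 on 35S-MIF1 arrays, against 343, 515 and 584 on vector arrays in darkness. For AT5G26260 the light values were 336, 622 and 876 on 35S-MIF1 arrays, against 291, 141 and 184 on vector arrays. Its genotypes did not overlap in either condition, and line 127 in light exceeded all dark vector arrays.

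AT2G21820, of no stated role here, had 225, 229.7 and 45.5 on 35S-MIF1 arrays, against 42.8, 40.8 and 32.3 on vector arrays in darkness. In light AT2G21820 had 34.5, 29.4 and 15 on 35S-MIF1 arrays, against 16.9, 5.36 and 9.46 on vector arrays. Line 127 was close to the vector arrays in darkness and lowest in light among the overexpressing samples. AT2G23270 had 357, 152 and 112 on 35S-MIF1 arrays, against 71.3, 138 and 58.6 on vector arrays in darkness. For AT2G23270 the light values were 19.2, 23.9 and 69.9 on 35S-MIF1 arrays, against 40.7, 24.1 and 12.4 on vector arrays. Both conditions overlapped. AT3G13950 had 271, 215 and 104 on 35S-MIF1 arrays, against 85.8, 67.1 and 65.8 on vector arrays in darkness. In light AT3G13950 had 27.8, 44.2 and 43.7 on 35S-MIF1 arrays, against 45.3, 26 and 13.7 on vector arrays. The dark groups stood apart by a small margin in line 127, and the light groups overlapped. AT5G25820, of the exostosin glycosyltransferase family, and AT3G18250 differed by 1.03 and 1.14 between dark 35S-MIF1 and dark vector seedlings.

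**Figure D2:**
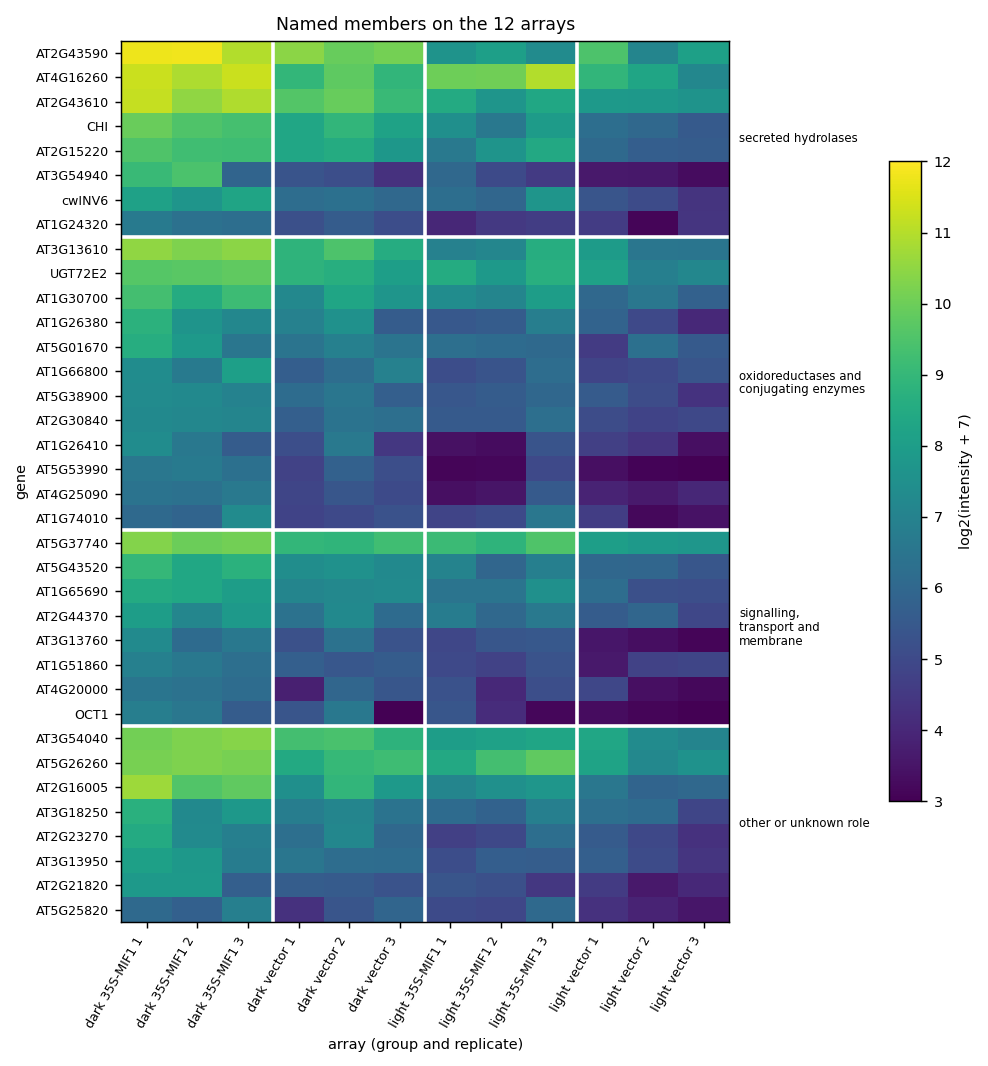
Signal of the 36 named members (rows, by role and then by dark 35S-MIF1 mean) on the 12 arrays (columns) as log2(intensity + 7), shown by colour. The 3 dark 35S-MIF1 columns are the brightest for most genes, and the third, line 127, is visibly dimmer for AT3G54940 and AT2G21820.

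The light 35S-MIF1 arrays took no part in the choice, so light 35S-MIF1 was set against light vector with limma, with p-values adjusted over all 15922 probe sets tested. This comparison is not independent of the choice, since low light vector values favoured membership. The difference was above 0 for 68 of the 72 members, with a median of 1.01, while the median over all probe sets tested was -0.01. Among the 68 tested members 64 were above 0, which is 94.1% against 48.1% of all tested. A difference of at least 1 was found in 35 tested members, against 1.73% of all tested. Every light 35S-MIF1 array was above every light vector array for 34 tested members, 50% of them, where 6.83% of all tested did so. The reverse order held for 0 tested members, against 7.01% of all tested.

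By adjusted p under 0.05, 12 of the 68 tested members were higher in light 35S-MIF1 seedlings. This is 17.6% of them, against 0.659% of all tested called higher. Low light vector values favoured membership, so these shares and the members' p-values below are partly shaped by the choice. Lower calls numbered 0 by limma among the members, against 0.327% of all tested, and were 0 also at an unadjusted p under 0.05. At that unadjusted threshold 41 were higher, as were 5.97% of all tested. Of the calls 4 were named genes and 8 were probe sets with no gene name. The β-1,3-glucanase gene AT4G16260 was 2.20 higher (SE 0.40, limma adjusted p = 0.023, n = 3 arrays each). The DC1 domain gene AT3G13760 was 1.93 higher (SE 0.34, limma adjusted p = 0.0189). The basic secretory protein gene AT2G15220 was 1.79 higher (SE 0.36, limma adjusted p = 0.0364). The C2 domain gene AT5G37740 was 1.29 higher (SE 0.19, limma adjusted p = 0.00812). In each of these genes all 3 overexpressing arrays exceeded all 3 vector arrays. The overexpressing arrays come from lines 124 and 127 only. The p-values treat both samples of line 124 as independent, so they do not measure how far overexpressing lines vary.

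Leaving out single arrays ended some of these calls. AT5G37740 kept its call without any 1 of the 12 arrays, with adjusted p up to 0.041. AT4G16260 lost its call without light 35S-MIF1 replicate 1 or 3 or light vector replicate 2 or 3, with adjusted p up to 0.119. AT3G13760 lost its call without light 35S-MIF1 replicate 3 or light vector replicate 2 or 3, with adjusted p up to 0.102. AT2G15220 lost its call in 9 of the 12 cases, with adjusted p up to 0.119. Over the 12 calls, 7 held without any single array. Of these, 4, all unnamed, also held in every other setting chosen in advance that tested them. Fitted on the light arrays alone, AT5G37740, AT4G16260 and AT2G15220 did not pass (limma adjusted p = 0.0758, 0.142 and 0.193). With a pseudocount of 32, AT3G13760 and AT2G15220 did not pass (limma adjusted p = 0.153 and 0.052), and the difference of AT3G13760, whose light vector values are near the bottom of the scale, was 0.86. With no filter on dim probe sets, and with the plant source as a random block, AT2G15220 did not pass (limma adjusted p = 0.0604 and 0.0501).

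The unnamed members included the 2 with the widest differences in light. The wider of them had 3996, 3418 and 4679 on 35S-MIF1 arrays, against 144, 144 and 322 on vector arrays in darkness. In light this probe set had 2862, 2271 and 4403 on 35S-MIF1 arrays, against 69.9, 42.3 and 63.9 on vector arrays. The overexpressing arrays of both conditions lay at a similar high level and the vector arrays at a low one. The light difference was 5.57 (SE 0.32, limma adjusted p = 1.19e-05). Whether this probe set detects MIF1 itself was not tested. The next unnamed probe set had 1912, 1038 and 378 on 35S-MIF1 arrays, against 28.6, 61.1 and 5.59 on vector arrays in darkness. In light it had 276, 174 and 123 on 35S-MIF1 arrays, against 7.39, 15.2 and 2.58 on vector arrays. Its light difference was 3.70 (SE 0.64, limma adjusted p = 0.0176), and line 127 was the lowest overexpressing array in both conditions. This call was lost without light 35S-MIF1 replicate 1 or 3 or light vector replicate 3 (limma adjusted p = 0.0788, 0.0532 and 0.0617).

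**Figure D3:**
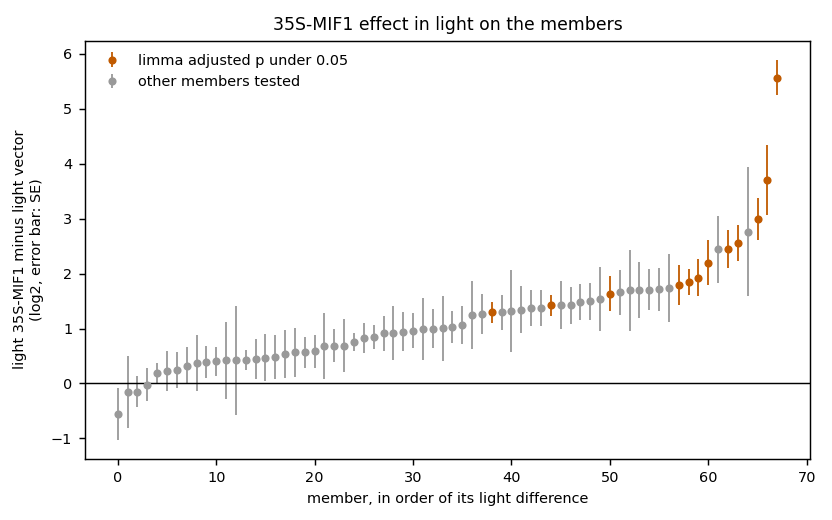
Light 35S-MIF1 minus light vector difference in log2(intensity + 7) for the 68 tested members, in order of size, with the SE from limma as error bars. The 12 members called are in orange. Of the 68 members 64 lie above 0, and the calls lie between 1.29 and 5.57.

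Among the roles, secreted hydrolases had a light median of 1.54 over 8 members, with 7 above 0 and 2 called. Signalling, transport and membrane members had a light median of 1.05, with 8 of 8 above 0 and 2 of 7 tested called. Oxidoreductases and conjugating enzymes had a light median of 0.69, with 11 of 12 above 0 and 0 of 10 tested called by limma, and the members of other or unknown role had 0.75, with 8 of 8 above 0 and 0 called. Of all probe sets tested, 48.1% were above 0 and 0.659% were called higher. Low light vector values favoured membership in every role, and differences between these roles were not tested. Some members without a call had differences as large as those with one, such as AT3G54940 with 1.70 (SE 0.73, limma adjusted p = 0.388) and cwINV6 with 1.71 (SE 0.38, limma adjusted p = 0.061). Smaller differences included AT3G54040 with 0.57 (SE 0.28) and AT3G13610 with 0.57 (SE 0.45), neither of which passed.

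The 4 members with a lower mean in light 35S-MIF1 than in light vector seedlings were AT2G43590 with -0.55, AT1G26410 with -0.15 and 2 unnamed probe sets, and their lowest adjusted p in limma was 0.766. The light 35S-MIF1 mean lay between the light vector and dark vector means for 52 members and at or above the dark vector mean for 16, among them AT4G16260 and AT5G37740. Dark 35S-MIF1 was above light 35S-MIF1 for 72 of 72 members, by 0.35 to 5.03 with a median of 1.94. The choice required high dark 35S-MIF1 values, so nothing is read from this order. The genotype difference in darkness exceeded that in light for 50 members, by a median of 0.37 over all 72. Since the choice required the difference in darkness, this comparison was not tested.

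**Figure D4:**
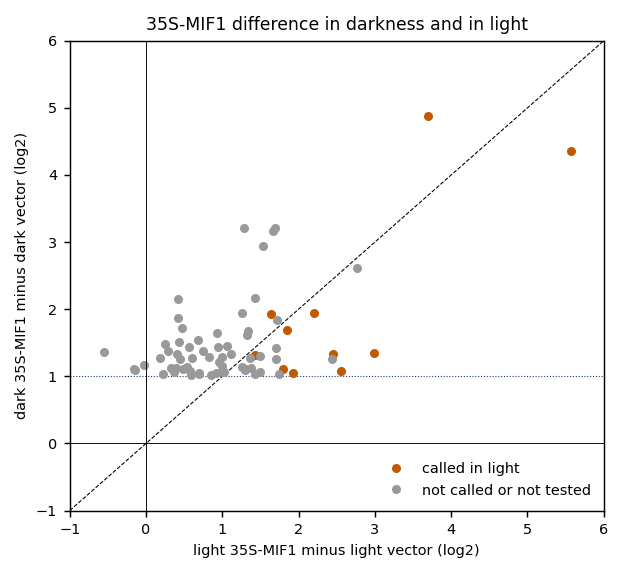
Dark 35S-MIF1 minus dark vector difference (vertical axis, at least 1 by choice, dotted line) against light 35S-MIF1 minus light vector difference (horizontal axis) for the 72 members, in log2 units. Members called in light are orange, and 50 members lie above the dashed line of equal differences.

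To see in part how far the choice shaped these values, members were chosen again without 1 array and read in that array, as a description. Without dark 35S-MIF1 replicate 1, 57 probe sets were chosen, and in that array their median difference from the dark vector mean was 1.58. Without replicate 2, 90 were chosen, with a median of 1.01 in it. Without replicate 3, the only array of line 127, 88 were chosen, with a median of 0.90 in it and 36 of them at least 1 higher. Over all probe sets tested the medians in those arrays were 0.01, 0.01 and -0.02. Line 127 alone chose 68, and in line 124 these had a median of 1.04, with 37 at least 1 higher. All these dark differences were taken from dark vector arrays that still took part in the choice, which favours values above 0. With replicate 1 or 2 left out, the other sample of line 124 also stayed in the choice. The dark medians are therefore not independent of the choice. With light vector replicate 1, 2 or 3 held out of the choice, the median of the light 35S-MIF1 mean minus that array was 0.58, 0.98 or 1.31 over 97, 79 or 62 chosen probe sets. The medians over all probe sets tested were -0.05, -0.03 and 0.02.

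The 2 overexpressing lines were also read apart. The dark values chose the members, and line 124 counted for 2 of the 3 arrays in that choice, which favours line 124 in darkness. Against the vector mean in darkness, the members' median difference was 1.11 in line 127 and 1.39 in line 124, and 41 members in line 127 and 67 in line 124 were at least 1 higher. In light, where the overexpressing arrays took no part in the choice, the members had a median of 1.49 in line 127 and 0.87 in line 124, and 50 and 32 members at least 1 higher. Line 127 was below both line 124 arrays in darkness for 38 members and above both for 15. In light it was above both for 45 members and below both for 10. With 1 array of line 127 per condition this has no replicate check. Shares over all probe sets tested are not given for these counts, so no order of the lines is read from them in darkness or in light.

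The unevenness in darkness was widest in a few members. The SD among the dark 35S-MIF1 arrays was at least 1 for 9 members, and line 127 was the lowest array in 9 of 9. For 11 members the line 127 dark array was at or below the highest dark vector array. The same held for 0 members in line 124 replicate 1 and for 7 in line 124 replicate 2. The greater weight of line 124 in the choice favours such a difference. AT3G54940 differed from the dark vector mean by 0.97 in line 127 and 4.34 in line 124, and AT2G21820 by 0.21 and 2.37. The opposite order was seen for AT1G74010, with 2.32 in line 127 and 0.97 in line 124. AT4G16260 differed little between lines, with 2.08 and 1.87.

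**Figure D5:**
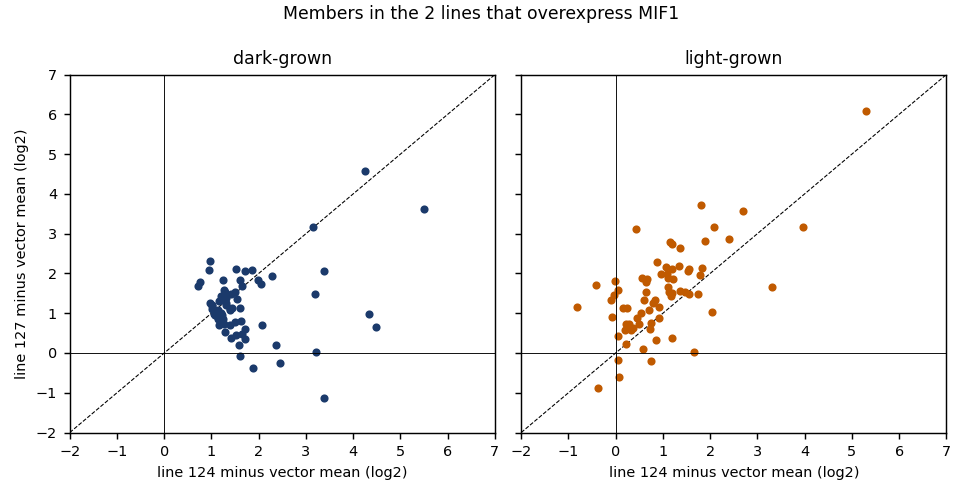
Difference from the vector mean of the same condition in line 127 (vertical axis, 1 array) against line 124 (horizontal axis, mean of 2 arrays) for the 72 members, in log2 units, for dark-grown seedlings on the left and light-grown seedlings on the right. The dashed line marks equal differences. In darkness several members lie far below it, and in light most lie above it.

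At the edge of the thresholds, AT3G18250 was included with a dark vector minus light vector difference of 1.02 and an unnamed probe set with 1.06, whereas AT3G14280 with 0.99 and an unnamed probe set with 0.98 were not. For the genotype difference in darkness AT1G51860 with 1.01 and AT2G30840 with 1.03 were the lowest members, and CCR2 with 0.9996 and an unnamed probe set with 0.998 were just outside. By dark 35S-MIF1 mean, AT5G25820 with 6.24 and OCT1 with 6.34 were lowest, and LCR67 with 5.81 was the 1 probe set left out by level alone. The 14 left-out probe sets also had higher means in light 35S-MIF1 than in light vector seedlings, from 0.70 for LEA4-5 to 4.11 for ICL. They met the same thresholds, so low light vector values favoured them too. Named members lie on all 5 chromosomes, with 9, 9, 6, 3 and 9 on chromosomes 1 to 5.

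Genes of related processes were read from lists chosen with earlier results in view, as far as the annotation named them. For all probe sets tested, 12.9% passed limma's threshold between dark 35S-MIF1 and dark vector seedlings (6.14% higher, 6.75% lower), 30.3% between dark and light vector seedlings (16.7% higher, 13.6% lower) and 0.986% between the genotypes in light. Of the autophagy and senescence genes, 7 of 12 could be matched by name. These 7 are autophagy genes, whose products recycle cell contents when sugar runs short. In dark vector against light vector seedlings 4 of 7 rose and 0 fell, among them ATG8B by 1.55 (limma adjusted p = 0.000981) and APG8A by 1.22 (limma adjusted p = 0.000423), with a median of 0.58. None of the 7 was called by limma between the genotypes in darkness or in light, and the medians were -0.14 and 0.28. Of the dark and sugar starvation genes, which include enzymes of leucine breakdown, 5 of 23 could be matched by name. In dark vector against light vector seedlings 3 rose, namely IVD by 1.67, MCCA by 1.505 and MCCB by 0.89, and 0 were called by limma between the genotypes in either condition. The median between genotypes in darkness was -0.57. None of the matched autophagy and starvation genes was among the 72 members. Whether an unnamed member detects one of the unmatched genes was not tested.

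Of the oil mobilisation genes 3 of 18 could be matched by name. ICL, one of the named genes left out of the members, was higher in dark 35S-MIF1 than in dark vector seedlings by 2.06. It was higher in dark vector than in light vector seedlings by 5.30. In light, ICL was higher in 35S-MIF1 than in vector seedlings by 4.11 (limma adjusted p = 0.000522). AIM1 and SDP1 were called by limma in none of these comparisons. Of the dark growth and light signalling genes 2 of 16 could be matched by name. The auxin-responsive IAA29 rose by 1.40 in dark vector against light vector seedlings (limma adjusted p = 0.0155) and fell by 2.01 in dark 35S-MIF1 against dark vector seedlings (limma adjusted p = 0.00635), and HYH passed in neither. Glutathione transferases and UDP-glycosyltransferases, which conjugate foreign and endogenous compounds, were the fullest list, with 45 of 64 tested. The list took genes by their names in the annotation, so the member AT5G53990, named there only by its locus, was not on it. The member UGT72E2 is 1 of the 45 tested and is left out of the counts, since the differences counted chose it. Of the other 44, between dark 35S-MIF1 and dark vector seedlings 5 rose and 4 fell, with a median of 0.34, and between dark and light vector seedlings 14 rose and 6 fell. In light, 0 differed between the genotypes by limma. UGT71C1 rose by 1.77 in dark 35S-MIF1 against dark vector seedlings, and UGT76E2 fell by 2.21 in the same comparison although it rose by 2.48 in dark vector against light vector seedlings. Of 3 sugar transporter genes tested, TMT1, TMT2 and TMT3, 0 were called by limma in any of the 3 comparisons. None of the 29 abscisic acid response genes and none of the 11 seed markers could be matched.

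Among the root markers EXPA7 and EXPA18, expansins of root hairs, were higher in dark 35S-MIF1 than in dark vector seedlings by 1.56 and 1.53 (limma adjusted p = 0.00325 and 0.00905), and PYK10 did not pass. Among the shoot markers PRK fell by 1.54 in the same comparison (limma adjusted p = 0.00221), and 4 of 5 were lower in dark vector than in light vector seedlings. In light, 0 of these 8 markers were called between the genotypes by limma.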

How the data were processed

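Probe set intensities of 12 Affymetrix ATH1 arrays were used as deposited. These linear intensities were made by the authors with GCOS (Affymetrix software), per the submitters' processing notes, which name no version. Every array had a trimmed mean of 150.01 (2% off each end), so the authors' scaling was kept. Values were taken as log2(intensity + 7). After removal of 64 control probe sets and of the 6824 whose mean over the arrays fell under the 30th percentile, 15922 were tested with limma 3.58.1 (R 4.3.3), using lmFit and eBayes, 4 group means over all 12 arrays and Benjamini-Hochberg adjustment over all tested, at a threshold of 0.05. SEs pool the spread of all groups (8 residual and 4.08 prior degrees of freedom). The number of arrays limits the precision.

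Members were chosen on group means, and families were left out by a list of loci. The members and gene lists were chosen with earlier results of these data known. Every member that names 1 gene is named. Values on all arrays are given for the 25 of these with the largest dark 35S-MIF1 minus light vector difference and for each named gene called in light, while the 2 unnamed probe sets and the line 124 and 127 comparisons shown in detail were chosen after their values were seen. Names came from the platform annotation and, for current symbols, RefSeq's TAIR10.1 gene table: 13513 probe sets name 1 gene, 503 several and 8730 none, and 13436 were matched. No sequence was used here. Of 66 array pairs 0 held identical values. The study's design text calls the replicates biological. Dark and light samples of 1 line and replicate number deviated together from their group means (r between 0.233 and 0.339 over 6 pairs), so the plant source was also fitted as a random block. This block kept the replicates of line 124 as separate sources. Alternatives were the pseudocount, the filter, the scaling, the prior, the light arrays alone, the block and each array left out.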

Additional observations from a re-analysis of the deposited data

How the results depend on the processing

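The number of members depended most on the pseudocount and the thresholds. It was 26 with a pseudocount of 32, all 26 of them among the 72, 106 with a pseudocount of 1, 10 with differences of at least 1.5, 48 when the arrays also had to lie apart in both differences (chosen after seeing the data), and between 57 and 97 when 1 array was left out, at its highest without light vector replicate 1. For members chosen again without a dark 35S-MIF1 array, the median in that array was between 0.90 and 1.58. It was taken against dark vector arrays that still took part in the choice. For members chosen again without a light vector array the median difference in light was between 0.58 and 1.31 (chosen after seeing the data).

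Members called in light numbered 7 with the light arrays alone, which leaves fewer arrays to estimate the spread, and between 7 and 15 when 1 array was left out, at 7 without light 35S-MIF1 replicate 3. Probe sets called in light over the whole table numbered 103 with a filter at the 50th percentile, 57 with the light arrays alone and between 45 and 265 when 1 array was left out: 45 without light 35S-MIF1 replicate 3, 68 without replicate 1, 265 without replicate 2 and 93 without light vector replicate 2, against 157 in the main result. With line 127 as the only light 35S-MIF1 array the members' median was 1.48 and 18 were called, on the assumption that this lone array varies like the other groups (chosen after seeing the data). With the plant source as a random replicate block 11 members and 180 probe sets were called, and of the members named only AT2G15220 lost its call. The members' median in light stayed between 0.72 and 1.29 under the other settings.

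Without 1 light array the light difference changed direction for 13 of the 72 members, 7 of them without light 35S-MIF1 replicate 3, and 0 of the 13 were called. Every setting was run gene by gene for 41 members, the 33 named ones tested and the 8 unnamed ones called, and 4 of these changed direction. When 1 array was left out, AT1G26410 lay between -0.81 and 0.20 (0.15 and 0.20 without light 35S-MIF1 replicate 1 and 2, and 0.12 without light vector replicate 1), and it was at 1.16 with line 127 alone. AT2G43590 lay between -1.12 and 0.082, above 0 without light vector replicate 1. AT1G24320 lay between -0.13 and 0.61, below 0 without light vector replicate 2, and AT2G23270 between -0.10 and 0.69, below 0 without light 35S-MIF1 replicate 3. Of all values for these 41 members under these settings, 825 kept direction and side of the threshold, 41 lost a call, 11 gained one and 7 changed direction. The cause of these changes was not tested.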
